A study of Drosophila melanogaster with 2 samples.

Results

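The genes examined are those for the proteins of the mitochondrial ribosome, set against the chromatin binding of CG3065 in Drosophila melanogaster embryos. CG3065 belongs to the Sp/KLF family of zinc finger transcription factors. Members were the protein-coding genes whose symbol in the Ensembl annotation begins with mRpL or mRpS followed by a digit. There were 73 of them among 13945 protein-coding genes on the 6 chromosome arms, 47 for the large and 26 for the small ribosomal subunit. The mitochondrial ribosomal protein genes tko and bonsai carry other symbols and are described separately. The data come from 1 group with 2 replicates, numbered 1 and 3, of whole embryos of both sexes collected at 0 to 16 h. Both came from a transgenic line in which green fluorescent protein (GFP) was fused to the C-terminal end of CG3065, and were precipitated with an antibody to GFP, so binding of the tagged protein was measured, averaged over all cells and ages in the collection. The labels call the samples biological replicates and do not say whether the embryos were collected separately. No untagged or input library was analysed here.

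The mitochondrial ribosome translates the few messenger RNAs made from mitochondrial DNA, which encode membrane subunits of the respiratory chain and of ATP synthase. All of its proteins are encoded in the nucleus, made on cytosolic ribosomes and imported. Many have counterparts in bacterial ribosomes, and others are found in mitochondria alone. Sp/KLF proteins bind GC-rich boxes through zinc fingers and act at promoters and enhancers of many gene classes.

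Each deposited peak has a summit and a signal, a value from the authors' peak caller that describes and ranks peaks within a list. The IDR list holds 2451 peaks and takes its name from the irreproducible discovery rate (IDR), the authors' criterion for its threshold. It equals the 2451 highest ranks of the 30000 peaks in the relaxed list from pooled replicates. Its signals run from 81.3 to 1017, with a median of 116. Membership therefore follows rank in the pooled list, and does not show that each peak passed a comparison of replicates 1 and 3. The relaxed list also holds entries of low signal, down to 21.5, with a lowest −log10 q of 0.0314, so an entry in it need not mark binding. Replicate 1 has 30000 relaxed peaks and replicate 3 has 26271, on scales of their own. A gene was counted as having a summit when one lay within 500 bp of any of its annotated start sites.

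Sequences of 101 bp centred on 6 IDR summits show the DNA under peaks on either side of the nearest-start rule. They cover strong and weak peaks, since mRpL4 and mRpS6 had signals below the IDR median, and several stronger peaks are not shown. The first 3 are from promoters where the gene's own start site was the nearest, and the other 3 from promoters where another gene's start was nearer. They are read from the RefSeq copy of the Release 6 genome (dm6), 5′ to 3′ along the strand of the mitochondrial ribosomal protein gene. Those of mRpL23 (chr3L:2373604-2373704), mRpL4 (chr2L:16329189-16329289), mRpS23 (chr2L:13835397-13835497) and mRpL24 (chr2L:4945454-4945554) are from the minus strand. Those of mRpS6 (chr3L:4364380-4364480) and mRpS10 (chr3R:15229458-15229558) are from the plus strand. Capitals mark matches to the motifs searched, which are listed further on, some of them by name alone.
mRpL23: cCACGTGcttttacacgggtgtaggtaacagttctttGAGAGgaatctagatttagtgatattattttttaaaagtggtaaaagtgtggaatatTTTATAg
mRpL4: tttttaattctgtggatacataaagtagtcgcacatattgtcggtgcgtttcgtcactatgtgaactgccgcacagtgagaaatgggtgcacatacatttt
mRpS6: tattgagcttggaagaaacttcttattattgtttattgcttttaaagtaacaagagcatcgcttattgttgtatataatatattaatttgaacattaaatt
mRpS10: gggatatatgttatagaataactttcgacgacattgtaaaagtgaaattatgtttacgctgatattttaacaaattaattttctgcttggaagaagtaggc
mRpS23: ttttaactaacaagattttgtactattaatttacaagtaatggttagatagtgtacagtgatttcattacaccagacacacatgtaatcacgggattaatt
mRpL24: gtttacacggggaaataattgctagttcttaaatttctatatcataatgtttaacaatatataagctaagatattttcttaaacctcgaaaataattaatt
Capitals occur in the mRpL23 window alone, where they mark an E-box, a GAGA element and a TATA word on the opposite strand. The other 5 windows held none of the motifs searched. GC content in the 6 windows ran between 22.8% and 40.6%, and the highest was that of mRpL4.

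IDR summits lay within 500 bp of the start of 16 of the 73 genes, 21.9% (Clopper-Pearson 95% interval 13.1% to 33.1%), against 12.0% of all protein-coding genes. These intervals cover counting error only. For 8 of the 73 (11.0%) the gene's own start was the nearest protein-coding start to the summit, against 8.66% of all protein-coding genes. At the other 8 the nearest start belonged to another gene. The members' share therefore stood above that of all genes when any nearby start was counted, and the interval of the nearest-start share (4.85% to 20.5%) contained the share of all genes. The order of the nearest-start shares turned with the stronger part of the IDR list (2.74% of members, against 4.86% of all genes) and with the strongest peaks of replicate 1 alone (8.22%, against 8.89%). Each of the 16 genes had 1 IDR summit, and no summit was shared between 2 of them.

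The highest signals belonged to mRpS10 and mRpS23 of the small subunit and mRpL41 of the large subunit. mRpS10, whose product has a bacterial counterpart in the small subunit, had a summit at 15229508 on 3R with a pooled signal of 733, rank 8 of the pooled list. Its signal was 363 in replicate 1 and 369 in replicate 3, at ranks 10 and 6. mRpS23 encodes a protein found in mitochondrial but not in bacterial ribosomes, and had a summit at 13835447 on 2L with a pooled signal of 650. Its signals of 314 in replicate 1 and 336 in replicate 3 had ranks 19 and 9. mRpL41, another protein without a bacterial counterpart, had a pooled signal of 583 at 15217759 on 2R, with 298 in replicate 1 and 288 in replicate 3. mRpL23, whose bacterial counterpart sits at the exit of the peptide tunnel, followed with a pooled signal of 361 at 2373654 on 3L, and 159 in replicate 1 and 196 in replicate 3. These 4 peaks were the only ones at the 73 genes among the first 100 ranks of the pooled list, and in both replicates they ranked 138 or higher up.

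A middle range was formed by mRpL24, mRpS2, mRpL2, mRpL34 and mRpL20. mRpL24, whose bacterial counterpart binds ribosomal RNA early in assembly, had a pooled signal of 221 at 4945504 on 2L, with 121 in replicate 1 and 96.9 in replicate 3. mRpS2 had a pooled signal of 176 at 4850569 on 2L, with 89.0 and 90.6 in replicates 1 and 3. mRpL2, which in bacteria lies beside the peptidyl transferase centre, had a pooled signal of 170 at 11120779 on 3L, with 101 in replicate 1 and 58.3 in replicate 3. It ranked higher up in replicate 1, at 430 against 1006 in replicate 3. mRpL34 had a pooled signal of 161 at 16098672 on 2R, and mRpL20 one of 133 at 13018116 on 3L. Both had the higher rank in replicate 3, 438 against 1037 in replicate 1 for mRpL34 and 642 against 1403 for mRpL20.

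Pooled signals below the median of the IDR list were found at 7 genes. mRpL4, which in bacteria lines the peptide tunnel, had 113 at 16329239 on 2L, and mRpS6 had 112 at 4364430 on 3L. mRpL11, part of the base of the stalk that binds translation factors in bacteria, had 104 at 14511624 on 3R. mRpL53, known from mitochondrial ribosomes alone, also had 104, at 13954175 on 2R. mRpS11 had 103 at 17072734 on 3R. mRpL37, which likewise has no bacterial counterpart, had 92.8 at 10784189 on 3R. The lowest was mRpL1, a protein of the movable stalk next to the exit site of transfer RNA, with 84.0 at 8301389 on 3R, close to the lowest IDR signal of 81.3. The replicates differed most in rank at mRpL4, which had rank 2614 in replicate 1 and 776 in replicate 3, and at mRpL53, with 1311 and 3073.

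**Figure D1:**
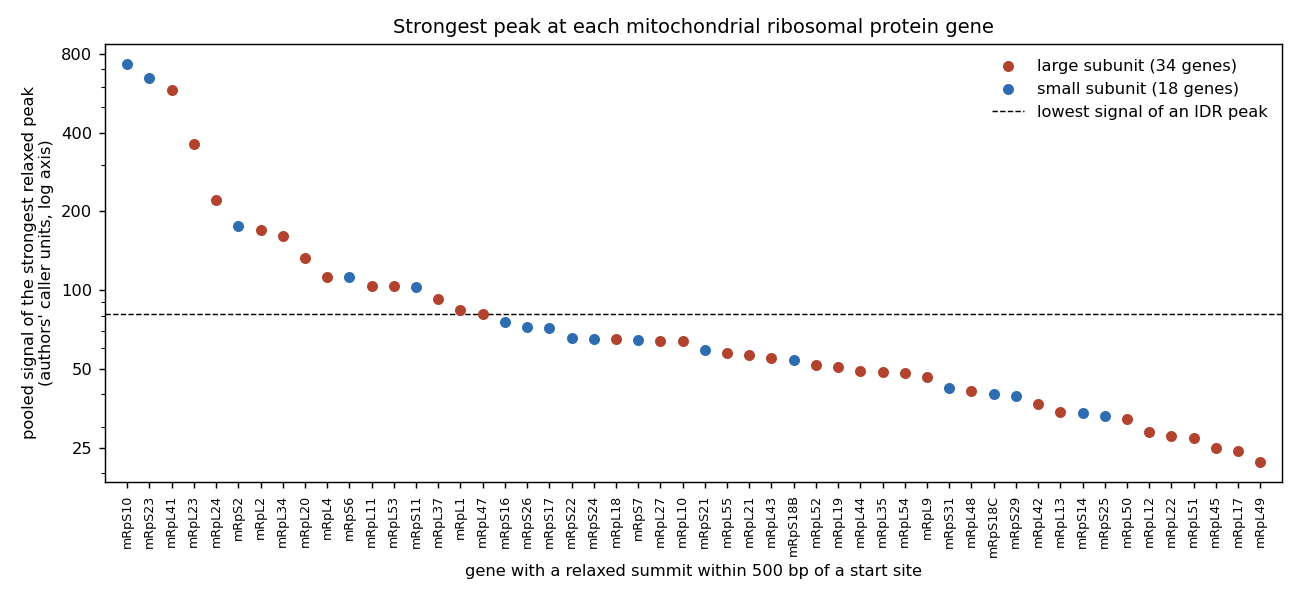
Pooled signal (vertical axis, log scale, in the units of the authors' caller) of the strongest relaxed peak at each of the 52 genes that have one within 500 bp of a start site, in descending order, coloured by ribosomal subunit. The dashed line is the lowest signal of an IDR peak, and 16 genes lie above it, led by mRpS10 at 733 and mRpS23 at 650.

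A relaxed peak with a summit within 200 bp was present in both replicates for all 16 IDR peaks. The distance between the pooled summit and that of replicate 1 had a median of 12.5 bp and reached 164 bp at mRpL37, and for replicate 3 the median was 12 bp and the maximum 59 bp. The matched peak of replicate 1 at mRpL37 lay nearer, at 36 bp, to a weaker pooled summit. Among the 2451 strongest peaks of the replicate were 13 of the 16 in replicate 1, 15 in replicate 3, and 12 in both. The exceptions were mRpL4, mRpL37 and mRpL1 in replicate 1, and mRpL53 in replicate 3. Over the 16 peaks the signals of the replicates had a Spearman correlation of 0.79, given as a description since both replicates were used to choose these peaks. Counted by gene, 12 of the 73 members (16.4%, 8.79% to 26.95%) had a summit among the 2451 strongest of each replicate. The share of all protein-coding genes, 8.99%, lies within this interval. Among genes with another protein-coding start within 500 bp the shares were 20.4% of the members and 18.5% of all. Among genes without one they were 5.26% and 4.73%.

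**Figure D2:**
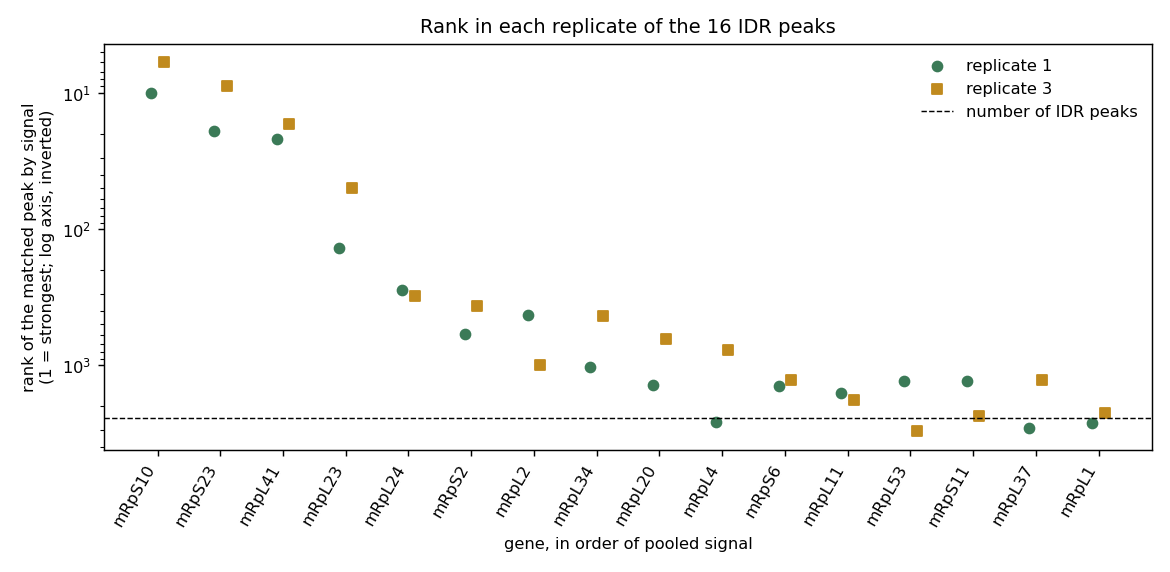
Rank by signal (vertical axis, log scale, 1 is the strongest) of the relaxed peak matched to each of the 16 IDR peaks in replicate 1 (circles) and replicate 3 (squares), with genes in order of pooled signal. The dashed line is at 2451, the number of IDR peaks, and the points beyond it are mRpL4, mRpL37 and mRpL1 in replicate 1 and mRpL53 in replicate 3.

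The shares of large and small subunit genes lay within each other's intervals. IDR summits lay at 11 of 47 large subunit genes (23.4%, 12.3% to 38.0%) and at 5 of 26 small subunit genes (19.2%, 6.56% to 39.4%). The difference of 4.17 percentage points, large minus small, had a 95% interval of -18.8 to 23.5 points. The own start was nearest for 6 large and 2 small subunit genes. The median pooled signal of the IDR peaks was 133 for the large subunit (84.0 to 583, n = 11) and 176 for the small subunit (103 to 733, n = 5), and these ranges overlap. With the strongest peaks of replicate 3 in place of the IDR list the shares were 21.3% for the large and 23.1% for the small subunit, so the sign of the difference was turned. For relaxed summits the counts were 34 of 47 (72.3%) and 18 of 26 (69.2%).

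Most of these genes share a promoter. The nearest start of another protein-coding gene lay within 500 bp for 54 of the 73 (74.0%), against 30.9% of all protein-coding genes, and for 52 of them (71.2%, against 25.3% of all) that neighbour ran in the opposite direction from a divergent start. Within 250 bp the shares were 35.6% of the members and 18.3% of all genes. The large subunit had 35 of 47 genes and the small subunit 19 of 26 genes with such a neighbour within 500 bp. No 2 members shared a promoter with each other. The genes are short, with a median length of 909 bp against 2166 bp for all protein-coding genes, and 67 of the 73 have 1 annotated start site.

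Set against genes with the same kind of promoter, the members came close to the background. Of the 54 members with a neighbour start within 500 bp, 14 (25.9%, 15.0% to 39.7%) had an IDR summit, against 23.6% of all protein-coding genes with such a neighbour. Of the 19 members without one, 2 (10.5%, 1.30% to 33.1%) had an IDR summit, against 6.88% of all genes of that kind. These 2 were mRpL41 and mRpL4. Both intervals contain the share of all genes of the same kind. Relaxed summits gave 77.8% of the members with a neighbour and 70.8% of all such genes, and 52.6% of the members without a neighbour and 39.7% of all such genes. Among genes with 1 start site, 14 of 67 members (20.9%, 11.9% to 32.6%) had an IDR summit, against 9.20% of all. This last comparison does not match the kind of promoter. A neighbour start lay within 500 bp for 73.1% of the members with 1 start site and 28.3% of all such genes.

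**Figure D3:**
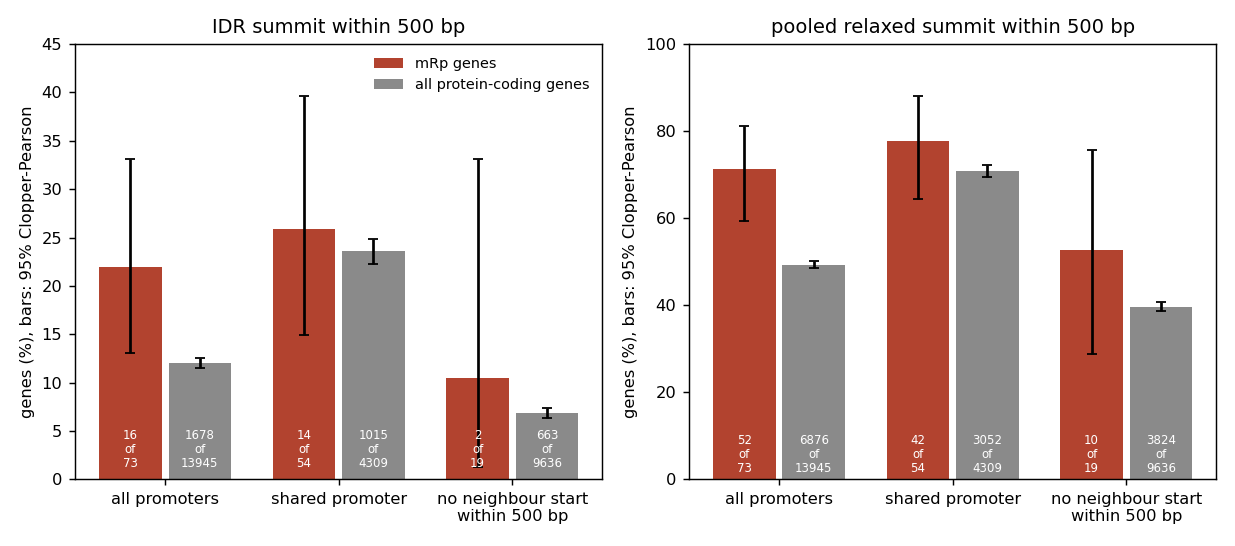
Share of genes (vertical axes, percent) with an IDR summit (left) or a pooled relaxed summit (right) within 500 bp of a start site, for the mitochondrial ribosomal protein genes and for all protein-coding genes, over all promoters, shared promoters and promoters without a neighbour start. Error bars are Clopper-Pearson 95% intervals, and the IDR bars stand at 25.9% and 23.6% for shared promoters.

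Neighbours at the bound promoters were of many kinds. The summit at mRpS10 lay 157 bp upstream of its start and 100 bp from that of Art3, an arginine methyltransferase gene. That at mRpS23 lay 375 bp upstream, and 117 bp from CenG1A, which encodes a GTPase activating protein of Arf proteins. betaggt-I, the beta subunit of a geranylgeranyl transferase, was 75 bp from the summit at mRpL24, which was 143 bp from its own start. Mon1, a gene of endosome maturation, was 72 bp from the summit at mRpS2, against 150 bp for mRpS2 itself. FoxK, a forkhead factor gene, started 4 bp from the summit at mRpL2, against 68 bp for mRpL2. The dystroglycan gene Dg lay at 108 bp, against 276 bp for mRpL34. Icmt, which methylates prenylated proteins, lay at 150 bp, against 249 bp for mRpL20. HtrA2, the gene of a mitochondrial protease, lay at 88 bp, against 214 bp for mRpL11. These are the 8 genes for which another start was nearer.

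The own start was nearer at the remaining genes with a divergent neighbour. At mRpL23 the summit lay 24 bp downstream of the nearest of 3 annotated starts and 74 bp from CG9004. At mRpS11 it lay 2 bp downstream of the start and 59 bp from Ns1, a nucleolar GTPase gene. For mRpL37 it was 97 bp upstream of the start. At mRpL1 it was 51 bp upstream, with CG9626 at 411 bp, and at mRpS6 it was 120 bp upstream, with Cip4, an actin regulator gene, at 328 bp. mRpL53 and CG33155 are annotated with the same start on the same strand, 20 bp downstream of the summit, and AGO1, the Argonaute gene of the microRNA pathway, starts on the other side at 150 bp. This tie was counted among the 8 genes with the own start nearest. mRpL41 and mRpL4 had no other protein-coding start within 500 bp of the summit, and their summits lay 142 and 107 bp upstream of the start.

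**Figure D4:**
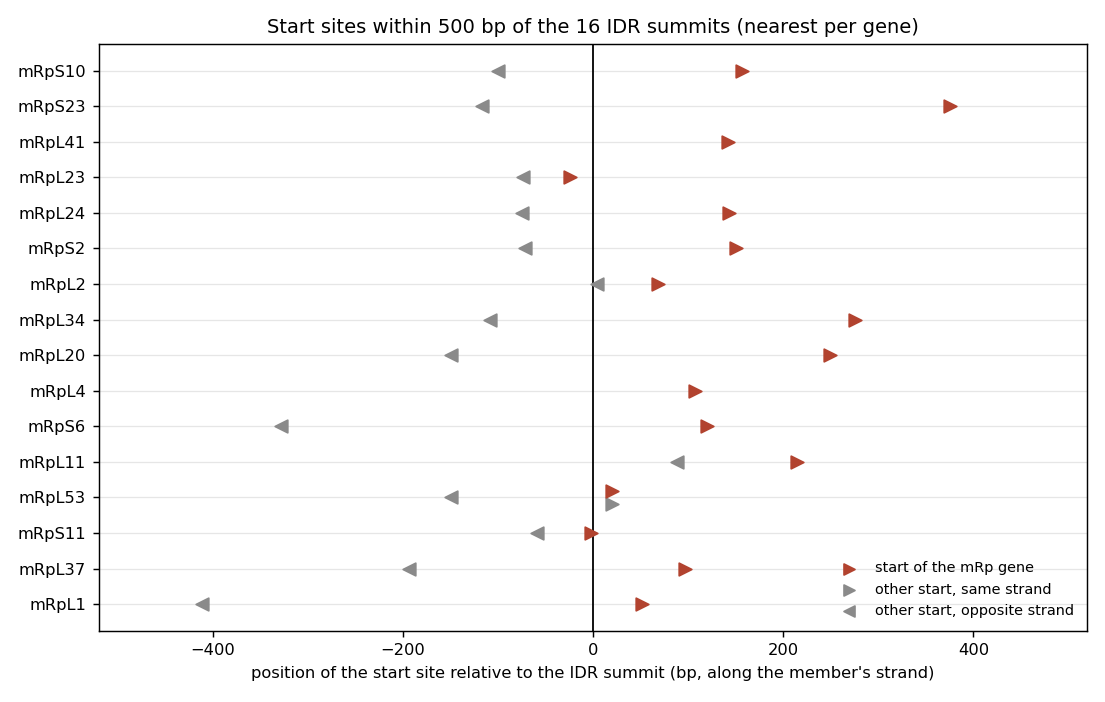
Start sites within 500 bp of each of the 16 IDR summits (horizontal axis, bp from the summit along the strand of the mitochondrial ribosomal protein gene, with the summit at 0), the nearest per gene, with genes in order of pooled signal from the top. Arrows point in the direction of transcription, and 14 of the 16 own starts lie to the right, downstream of the summit.

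The nearest neighbour start was divergent and within 500 bp at 13 genes with an IDR summit. Of these, 9 had the summit between both starts and 8 had it nearer the neighbour's start. The starts of such a pair were 24 to 492 bp apart, with a median of 257 bp. mRpL53 is not in this count, because its nearest neighbour is CG33155. Its summit also lay between its start and the divergent start of AGO1. At mRpL2 and mRpL11 the summit lay past the neighbour's start, and at mRpS11 and mRpL23 past the own start. Among all genes with an IDR summit and a shared promoter, the own start was nearest or tied in 56.8% (576 of 1015), against 42.9% (6 of 14) of the members. Summits were upstream of the own start for 14 of 16 members, and in 87.5% of the 1783 pairs of a gene and an IDR summit. The distance to the own start had a median of 131 bp for the members (2 to 375 bp) and 147 bp over all pairs. The 54 neighbours that share a promoter with a member included 15 with an IDR summit (27.8%), against 23.6% of all genes with a shared promoter. One of them, CG10602, had its summit at a start outside the window of mRpL13, which had no IDR summit. The others had the summit already counted at the member, so their count is not separate from that of the members.

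Below the IDR threshold lay relaxed summits at a further 36 genes, which brought the total to 52 of 73 (71.2%, 59.5% to 81.2%), against 49.3% of all protein-coding genes. The own start was nearest to a relaxed summit for 33 of the 73 (45.2%), against 41.5% of all. Relaxed summits of each replicate were present at 38 of the 73 (52.1%), against 34.2% of all protein-coding genes. This comparison does not match the kind of promoter. With a neighbour start within 500 bp the shares were 63.0% of the members (34 of 54) and 55.3% of all such genes. Without one they were 21.05% (4 of 19) and 24.75%. Of 45 relaxed peaks at members outside the IDR list, 25 had a match within 200 bp in both replicates, 15 in replicate 1 only, 2 in replicate 3 only and 3 in neither. The same replicate peak could match several pooled peaks, so a match need not be a peak of its own. This occurred at mRpL37 and mRpS31 in replicate 1, and at mRpL34 and mRpS24 in replicate 3. Their pooled signals ran between 22.1 and 81.0, with a median of 46.6.

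The strongest of these lay just below the threshold. mRpL47, whose product has a bacterial counterpart at the tunnel exit, had a pooled signal of 80.95 at 9515927 on 3R, rank 2464, against 81.33 for the last IDR peak. Its signal was 58.7 in replicate 1 (rank 1527) and 22.1 in replicate 3 (rank 7863). mRpS16, with 75.5, was followed by mRpS26 with 72.4 and mRpS17 with 71.5. The summit at mRpS16 was nearer the start of cg, a zinc finger protein gene, and that at mRpS17 nearer Nop60B, the gene of the pseudouridine synthase for ribosomal RNA. mRpS22 had a pooled signal of 65.8, with 16.9 in replicate 1 (rank 16069) and 41.2 in replicate 3 (rank 2047), so the replicates placed it far apart. mRpS24 (65.4), mRpL18 (65.2), mRpS7 (64.7), mRpL27 (64.1) and mRpL10 (63.8) had nearly equal pooled signals. At mRpL18 the nearer start was that of Taz, which encodes the cardiolipin remodelling enzyme tafazzin, and at mRpS7 that of the cell cycle kinase gene Cdk1. mRpL27 had its summit nearer CG15435, and its rank was 2428 in replicate 1 and 26233 in replicate 3. mRpL10, whose bacterial counterpart anchors the stalk proteins, was the only gene of these 10 with no other protein-coding start within 500 bp of the summit.

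No relaxed summit lay within 500 bp of the start of 21 genes, 13 of the large and 8 of the small subunit. They were mRpL3, mRpL14, mRpL15, mRpL16, mRpL28, mRpL30, mRpL32, mRpL33, mRpL36, mRpL38, mRpL39, mRpL40 and mRpL46, and mRpS5, mRpS9, mRpS18A, mRpS28, mRpS30, mRpS33, mRpS34 and mRpS35. Their nearest relaxed summit was 552 bp (mRpL36) to 10314 bp (mRpS34) away, with a median of 1592 bp. The nearest neighbour start was divergent and within 500 bp at 12 of the 21. The same held at 27 of the 36 with a relaxed summit only, and at 13 of the 16 with an IDR summit. The read depth of the lists is unknown, so a missing entry says only that the caller listed no peak there. No member without an IDR summit in the 500 bp window had one within 1000 bp.

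By chromosome arm, IDR summits lay at 4 of 12 members on 2L (33.3%, 9.93% to 65.1%), against 12.3% of all genes there. On 2R they lay at 3 of 12 (25%, 5.49% to 57.2%), against 11.0%. They lay at 4 of 17 on 3L (23.5%, 6.81% to 49.9%), against 12.9%, and at 5 of 21 on 3R (23.8%, 8.22% to 47.2%), against 14.0%. Each of these intervals contains the share of all genes on that arm. On X there were 0 of 11, which allows a share of up to 28.5% (exact 95% interval), and 9.15% of all X genes had one. Relaxed summits were found at 4 of the 11 X-linked members (36.4%, 10.9% to 69.2%), against 50.8% of all X genes. They were those of mRpL22, mRpL49, mRpS14 and mRpS25, with pooled signals between 22.1 and 33.9. The other 7 had none, against 14 of the 62 members on the autosomes.

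**Figure D5:**
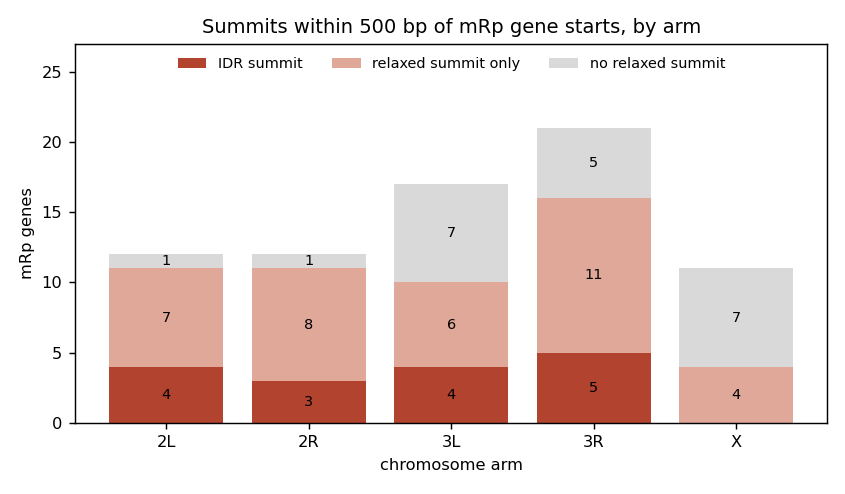
Number of mitochondrial ribosomal protein genes (vertical axis) on each chromosome arm with an IDR summit, a relaxed summit only, or neither within 500 bp of a start site. All 16 genes with an IDR summit lie on autosomal arms, and the X has 4 genes with a relaxed summit only and 7 with neither.

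The motifs searched on both strands were the Sp/KLF box CNCNCCC, in which the first N is A or C and the next one A or G, the DNA replication-related element (DRE, TATCGATA), the E-box CACGTG, the GAGA element GAGAG, the TATA word TATAAA, Ohler motifs 1, 6 and 7, and the NRF-1 site. None of the 16 windows within 50 bp of a member's IDR summit held a match to the Sp/KLF box, against 80 of 1236 (6.47%) of all IDR summits at promoters. With 0 of 16, the exact 95% interval reaches up to 20.6%. The DRE also matched 0 of 16, against 3.32%. A TATA word was present in 2 of 16 (12.5%), those of mRpL23 and mRpL37, against 21.0%. An E-box and a GAGA element were each found at mRpL23, against 1.38% and 8.82% of all windows. Ohler motif 6 matched at mRpL41 and Ohler motif 7 at mRpL34, against 1.13% and 5.10%. Ohler motif 1 and the NRF-1 site matched at 0 of 16, against 1.05% and 0.0809%. Windows at the members' IDR summits had a median GC content of 31.2%, against 34.7% at all such summits. A match is a description of letters, and 0 of 16 says only that these letters were not in these windows.

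Promoters of the members, 250 bp before to 50 bp after the start, held the DRE in 15 of 73 (20.5%), against 9.36% of all protein-coding genes, and Ohler motif 7 in 17 of 73 (23.3%), against 9.29%. Ohler motif 1 (8.22% against 4.50%) and Ohler motif 6 (8.22% against 3.95%) stood in the same order. These are elements known from promoters of housekeeping genes in the fly. The GAGA element was in 16.4%, against 29.7%, and the Sp/KLF box in 2 of 73 (2.74%), against 6.15%. The box was in the promoters of mRpS14 and mRpS25, both on X and without an IDR summit. TATA words were about as frequent in both (46.6% and 45.8%). The members' promoters had a median GC content of 34.7%, against 38.0% of all.

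IDR summits were also counted at other genes of mitochondrial gene expression. Of all protein-coding genes, 12.0% had an IDR summit and 49.3% a relaxed one. The own start was nearest to an IDR summit for 8.66% of all genes, and 30.9% had a shared promoter. Of 15 mitochondrial aminoacyl-tRNA synthetase genes, which load amino acids onto mitochondrial transfer RNAs, 0 had an IDR summit (upper limit 21.8%) and 9 a relaxed one, with LeuRS-m highest at 64.8. Of 9 genes of mitochondrial translation factors, 0 had an IDR summit (upper limit 33.6%) and 5 a relaxed one, with the elongation factor gene mEFTu1 highest at 67.0. Of 8 genes of mitochondrial transcription and RNA factors, 1 had an IDR summit, mTerf5, of a family that regulates mitochondrial transcription, with a signal of 91.8 and its own start nearest. In this list TFAM, which packages mitochondrial DNA, mtTFB1 and mtTFB2 had no relaxed summit. The ribosomal protein genes tko and bonsai, which the symbol rule does not cover, had relaxed summits with signals of 43.1 and 25.6 and no IDR summit. Of the 73 mRp genes, 16 had an IDR summit, 8 had the own start nearest to one, and 54 had a shared promoter. Of 92 cytosolic ribosomal protein genes, the same counts were 46, 43 and 37. No difference between these lists was tested.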

How the data were processed

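ChIP-seq peak lists of 2 replicates of 1 group in build dm6 were used. Lists in dm3 were not. The authors deposited relaxed peak lists per replicate and pooled, and an IDR list drawn from them, according to the records beside the files. Each deposited peak has a signal value and a −log10 q from the authors' caller. What aligner, caller, versions and cutoff were used is not given in the sources used here. Without read counts in the lists, the depth per sample is unknown, and each signal is used within its own list. Chromatin was sheared to 200 to 800 bp, per the labels.

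Start sites came from Ensembl release 115 (BDGP6 version 54), and sequence from the RefSeq copy of Release 6. Coordinates are 1-based. Summits were matched to starts within 500 bp, to replicate summits within 200 bp, and motifs within 50 bp. Shares have Clopper-Pearson 95% intervals, and the difference between subunits has an interval built from both subunits' limits by the square-and-add method of Newcombe. Peaks were chosen by the authors from both replicates, so no test between samples was possible, and genes are not replicates. Named are all members with an IDR summit, the 10 strongest with a relaxed summit only, and those with none. Printed sequences are the 3 of highest signal of each kind outside arm 2R. The members, lists and motifs were chosen with earlier results of these data known. Symbols that matched no gene in the annotation were left out. Steps were tested on simulated data. Python 3.11.15, numpy 2.4.6, pandas 2.3.3, scipy 1.17.1 and matplotlib 3.10.9 were used.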

Additional observations from a re-analysis of the deposited data

How the results depend on the processing

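With IDR peaks at or above the median signal of the list, 9 members had a summit (12.3%, against 6.83% of all protein-coding genes) and the own start was nearest for 2 (2.74%, against 4.86% of all). With 250 bp between starts, 26 members shared a promoter. With a 250 bp window 14 members had an IDR summit (19.2%, against 9.595% of all), with a median signal of 122.9 in place of 146.9. With 1000 bp there were 16 (21.9%, against 14.1%). Relaxed summits lay at 47 and 58 members with these windows, and the share of all genes was not computed. Relaxed peaks matched in both replicates numbered 33 within 100 bp and 46 within 400 bp, against 41 within 200 bp. With 1000 bp between starts, 60 members shared a promoter (82.2%, against 42.9%). Changes of summit and start-site rule left the counts of members unchanged. Without replicate 1, 16 members had a summit (21.9%, against 11.8% of all genes), and without replicate 3, 15 (20.55%, against 12.3%). The own start was nearest for 8 without replicate 1 (10.96%, against 8.46%) and for 6 without replicate 3 (8.22%, against 8.89%). Relaxed summits lay at 41 members without replicate 1 (56.2%, against 41.15% of all genes). Without replicate 3 they lay at 58 (79.45%, against 52.0%). The difference between subunits was -1.8 points without replicate 1 and 2.05 points without replicate 3. Of the 15 members found with replicate 1 alone, 13 also had an IDR summit, and mRpL27 and mRpL47 did not. Of the 16 found with replicate 3 alone, 15 had one and mRpS22 did not. Depth is unknown, and the number of genes limits the precision of a share to the intervals given.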

Other observations

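Promoter motifs were also counted by the class of peak at the member. The DRE was in 3 of 16 promoters (18.8%) with an IDR summit, 8 of 36 (22.2%) with a relaxed summit only and 4 of 21 (19.0%) with neither. Ohler motif 7 was in 12.5%, 30.6% and 19.0% of the same classes. The GAGA element was in 5 of 16 promoters (31.2%) with an IDR summit, 3 of 36 (8.33%) with a relaxed summit only and 4 of 21 (19.0%) with neither. TATA words were in 31.2%, 52.8% and 47.6% of these classes, and Ohler motif 1 in 0 of 16, 5 of 36 and 1 of 21. In promoters of all protein-coding genes the DRE was in 9.36%, Ohler motif 7 in 9.29% and the GAGA element in 29.7%. For TATA words that share was 45.8%, and for Ohler motif 1 it was 4.50%. The GAGA share with an IDR summit was thus close to that of all genes. No difference between these classes was tested.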
